A study of Mus musculus with 8 samples.

Results

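The MYC and MAX network is a family of transcription factors that compete for the same DNA sites. MYC and its relatives need a shared partner, MAX, to bind the E-box CACGTG, and the MYC-MAX pair activates genes of growth and ribosome production. The MXD proteins (Mxd1, Mxd3, Mxd4 and the related Mxi1), MNT and MGA also pair with MAX and generally repress such genes, while MLX is the MAX-like partner of the nutrient-responsive factors MLXIP and MLXIPL and can also pair with some MXD proteins and MNT. In many cell types MYC is induced when resting cells enter the cell cycle, and MXD proteins accompany exit from it or differentiation.

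The members described here were the 9 genes whose symbols in the deposited gene lists equal Myc, Max, Mxd1, Mxd3, Mxd4, Mxi1, Mnt, Mlx and Mga, of 27998 genes in all. They were followed in 8 single-cell RNA libraries of microglia, the macrophages that reside in brain and spinal cord, sorted as YFP+ cells from the lumbar cord of C57BL/6 mice. The 4 libraries named control came from Cx3cr1-yfp-creER/+ animals and the 4 named A20 cKO from Cx3cr1-yfp-creER/+; Tnfaip3 fl/fl animals, and in each genotype 1 library was naive and 1 each was taken 1, 2 and 3 days after bilateral sciatic nerve transection. All animals therefore carried the Cx3cr1 insertion that drives YFP and the tamoxifen-dependent Cre, a promoter that is also active in some blood-derived monocytes and border macrophages. Each library pooled the cords of several animals, and each group had 1 library and no replicate. The age of these animals is not given in the labels. Both names refer to the labels of the libraries throughout.

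After filtering, 14626 of 14883 barcodes were kept, between 558 and 3585 per library, with a median depth of 2780 to 4274 UMIs (unique molecular identifiers, each counting 1 captured RNA molecule) per cell. Levels are CPM, the UMIs of a gene summed over the kept cells of a library and scaled to a common library total. Ranges after values are exact 95% intervals and cover counting error only. The 8 microglia markers, among them P2ry12 and Tmem119, summed to between 11892 and 24672 CPM. A group of 5 libraries, named linked here (control day 3 and all 4 of A20 cKO), shared 256 cell barcodes over 10 pairs. The 15 pairs of a linked library with any of the other 3 shared 98. Scaled to library size, the linked pairs shared 5.41 to 67.6 barcodes per 1e6 pairs of cells and the 15 mixed pairs 0.797 to 8.83, so the ranges overlap. Control naive with A20 cKO day 1 and with A20 cKO day 3 lay above the lowest linked pair, control day 3 with A20 cKO naive. The 5 neutrophil markers summed to 28.7 to 51.8 CPM in the linked libraries and to at most 0.142 CPM in the other 3, the 5 monocyte markers to 29.1 to 91.6 against 2.42 to 8.64 CPM, and the 5 oligodendrocyte markers to 149 to 202 against 60.1 to 83.3 CPM. Marker lists of astrocytes, neurons, endothelial cells, perivascular macrophages and lymphocytes were each at or below 51.2 CPM in every library, and Cd163 was at 0 in all 8. The part of this split in the values below was not tested, and genotype and split cannot be told apart except within the linked libraries. Tnfaip3, the floxed gene, read 6.83 to 25.3 CPM in the control libraries and 42.3 to 67.7 CPM in the A20 cKO libraries. Its reads come from the 3′ end of the transcript and the position of the deleted part is not given in the sources used here, so this level does not check the deletion.

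The E-box itself is shown for the members that carry it near their own start. RefSeq promoter windows (build GRCm38.p6) ran from 250 bases before to 50 bases after an annotated start. They were matched for 8 of the 9 members and gave 10 windows, 3 of them of Mxi1. Myc had no window and was not searched. Windows 2 and 3 of Mxi1 overlap each other. The motif CACGTG, which reads the same on both strands, was present in 4 of the 10, compared with 7.15% of 32851 promoter windows of the same length. The CHR motif TTTGAA, searched on both strands and not overlapping the E-box, was present in 0 of the 10 windows and in 17.9% of all windows. The member windows were 55.0% to 76.7% G or C, and the comparison with all windows was not matched for base content. These are letter matches and say nothing of binding. The 30 bases around each E-box follow, 5′ to 3′ on the strand of the gene, with the E-box in capitals.
Max: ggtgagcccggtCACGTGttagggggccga
Mxd4: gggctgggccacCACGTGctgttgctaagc
Mnt: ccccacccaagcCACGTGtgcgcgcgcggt
Mlx: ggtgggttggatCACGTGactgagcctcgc
The stretches lie at chr12:76962234-76962263 (minus strand) for Max, chr5:34187912-34187941 (minus strand) for Mxd4, chr11:74830789-74830818 (plus strand) for Mnt and chr11:101087238-101087267 (plus strand) for Mlx. The first base of the motif stood at position -3 relative to the start of Max, at -219 for Mxd4, -123 for Mnt and -40 for Mlx.

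Myc (ENSMUSG00000022346, chromosome 15, 61985391 to 61990374, plus strand, GRCm38), the activating member, was highest in both libraries taken 1 day after injury. From naive to day 3 the control libraries gave 31.5 CPM (23.4 to 41.4), 96.5 (91.4 to 101.7), 43.4 (40.2 to 46.7) and 46.4 (41.6 to 51.6). The A20 cKO libraries gave 54.8 CPM (50.1 to 59.9), 85.5 (75.4 to 96.6), 41.5 (34.6 to 49.4) and 38.6 (31.3 to 47.0). Both day-1 libraries could not be told apart by counting error (log2 ratio 0.17, -0.02 to 0.37), and A20 cKO day 1 stood above the next library, A20 cKO naive, by 0.64 log2 (0.42 to 0.86). From control day 3 down to control naive, no neighbouring pair in the order of Myc levels differed beyond counting error, but control day 3 stood above control naive by 0.55 log2 (0.13 to 1.01) and control day 2 by 0.45 (0.05 to 0.90).

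The share of cells with a Myc UMI had the same 2 peaks. Cells with at least 2000 UMIs were thinned to 2000 each, so that they were compared at equal depth. Control libraries then gave 6.57%, 14.8%, 7.87% and 9.11% from naive to day 3, and A20 cKO libraries gave 10.1%, 14.5%, 7.35% and 7.43%. Shallower cells were left out, 66 of 568 in control naive and 98 of 3323 on day 1, and 310 of 2922 in A20 cKO naive and 56 of 886 on day 1. The unthinned shares were 7.92% and 28.0% in control naive and day 1, and 14.3% and 23.0% in A20 cKO naive and day 1. The other unthinned shares lay between 13.8% and 16.2%. No cell type that should lack these genes was sorted, so the share given by free RNA was not measured.

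Within the network, Myc made up 9.83% of the UMIs of the 9 members in control naive (7.40 to 12.7) and 30.1% on control day 1 (28.7 to 31.4). The corresponding shares were 12.6% in A20 cKO naive and 20.1% on A20 cKO day 1, and between 11.3% and 14.9% in the other 4 libraries. The sum over all 9 members was 320 CPM in control naive and 321 CPM on day 1. Of the other 8 members, 6 were lower there on day 1 than in naive, while 40.5% of all tested genes were higher.

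**Figure D1:**
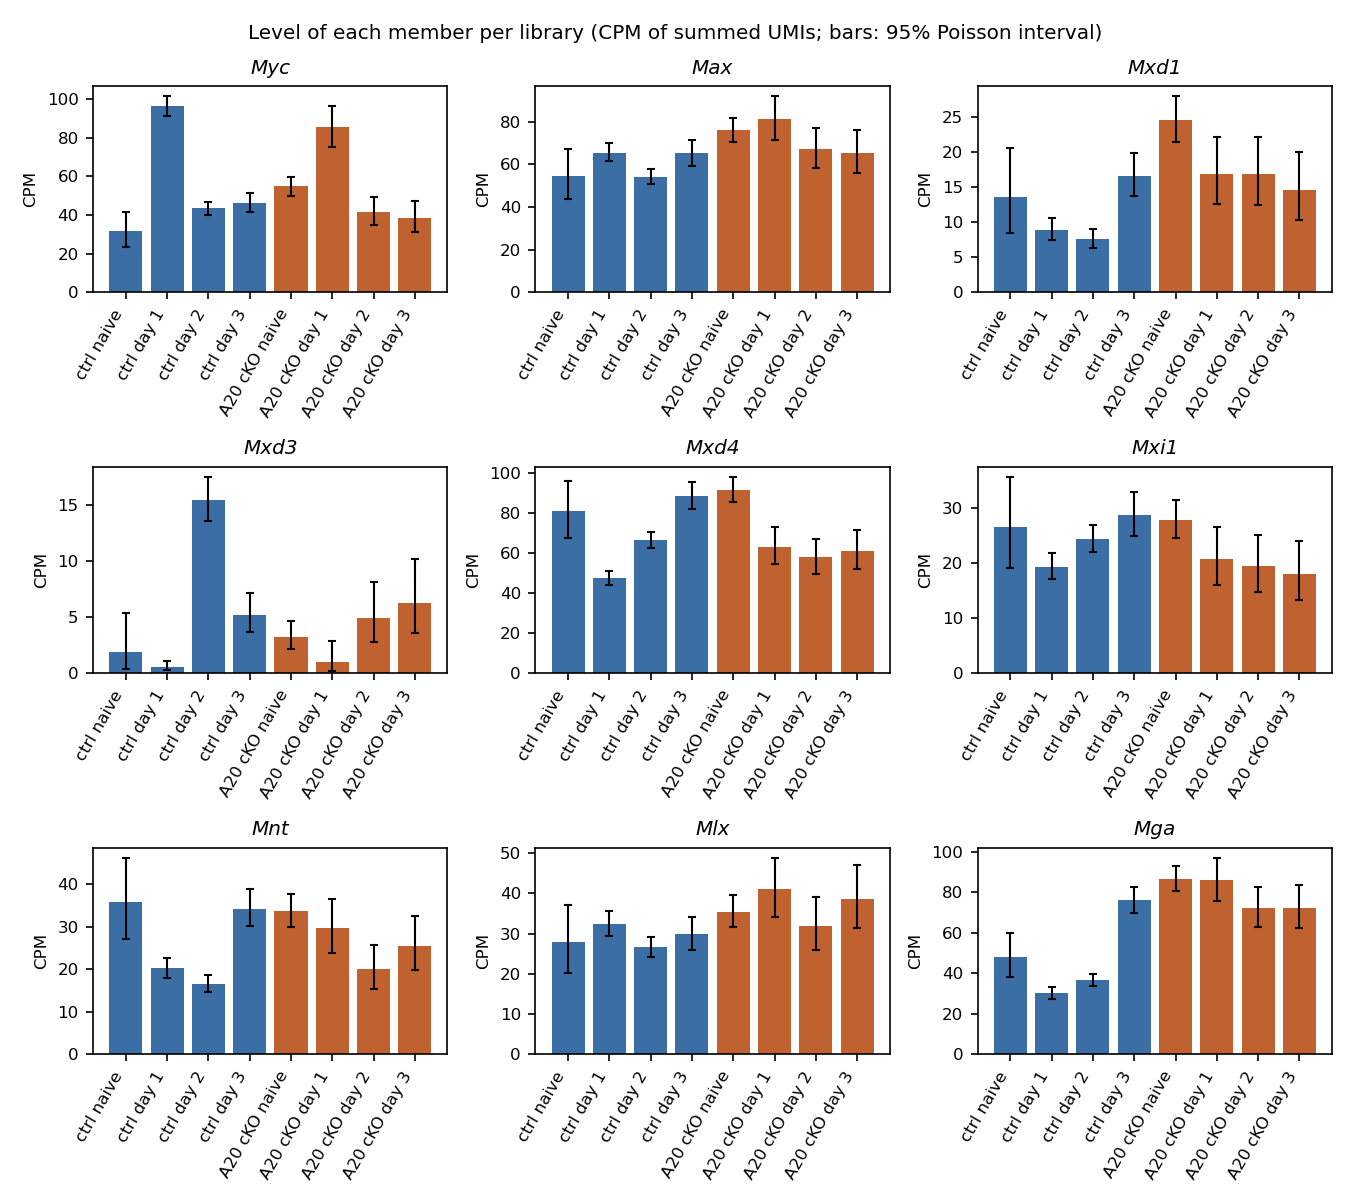
Level of each of the 9 members in CPM (vertical axes, each starting at 0) in the 8 libraries, blue for control and orange for A20 cKO, with 95% Poisson intervals that cover counting error only. Myc is highest in the 2 day-1 libraries (96.5 and 85.5 CPM), Mxd3 in control day 2 (15.5 CPM), and Mga is higher in control day 3 and the 4 A20 cKO libraries (72.2 to 86.4 CPM) than in the other 3 (30.3 to 48.1 CPM).

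Early response genes, which the handling of cells can raise, were set beside Myc. Fos, an early response transcription factor, read 4105 CPM on control day 1, the highest of the 8 libraries, and 13.2 CPM on A20 cKO day 1, the lowest. A list of 11 early response and heat shock genes summed to 18904 CPM on control day 1 and 875 CPM on A20 cKO day 1, beside 1041 and 3972 CPM in the naive libraries of the same genotypes. On day 1 against naive this list was higher in control and lower in A20 cKO, and Myc was higher in both. Control day 1 was high in the list and in Myc alike, and the part of handling in the Myc levels was not tested. Within libraries, the log2 ratio of Myc between cells with and without a Fos UMI ran from -0.61 to 0.77 and was beyond counting error in 0 of 8 libraries. On control day 1 only 10 cells lacked a Fos UMI. Only 24 cells had one on A20 cKO day 1, 28 in control naive and 43 on A20 cKO day 2. These libraries have little to compare, so the count of 0 of 8 rests mainly on the others.

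A list of 23 nucleolar and growth genes linked to MYC, among them the rRNA-processing factors Ncl, Nop56 and Fbl, was also highest on day 1 in both genotypes. From naive to day 3 its sum was 1546, 2833, 2268 and 1987 CPM among the controls, and 1785, 2924, 2399 and 2159 CPM among the A20 cKO libraries. On day 1 against naive 8 of 21 tested genes of the list were higher by at least 2-fold in control and 6 of 21 in A20 cKO, with 0 lower in either. Of all tested genes, 3.82% were higher by this measure in control and 1.56% in A20 cKO. The median log2 ratio of the list was 0.82 in control, where the median of all tested genes was -0.13, and 0.70 in A20 cKO, where it was 0.04. Srm, the spermidine synthase, named after its values were seen, read 30.9, 135.3, 98.1 and 36.8 CPM from control naive to day 3, and 31.2, 70.0, 53.1 and 33.4 CPM with A20 cKO, so that its day-2 level was still above naive in both.

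**Figure D2:**
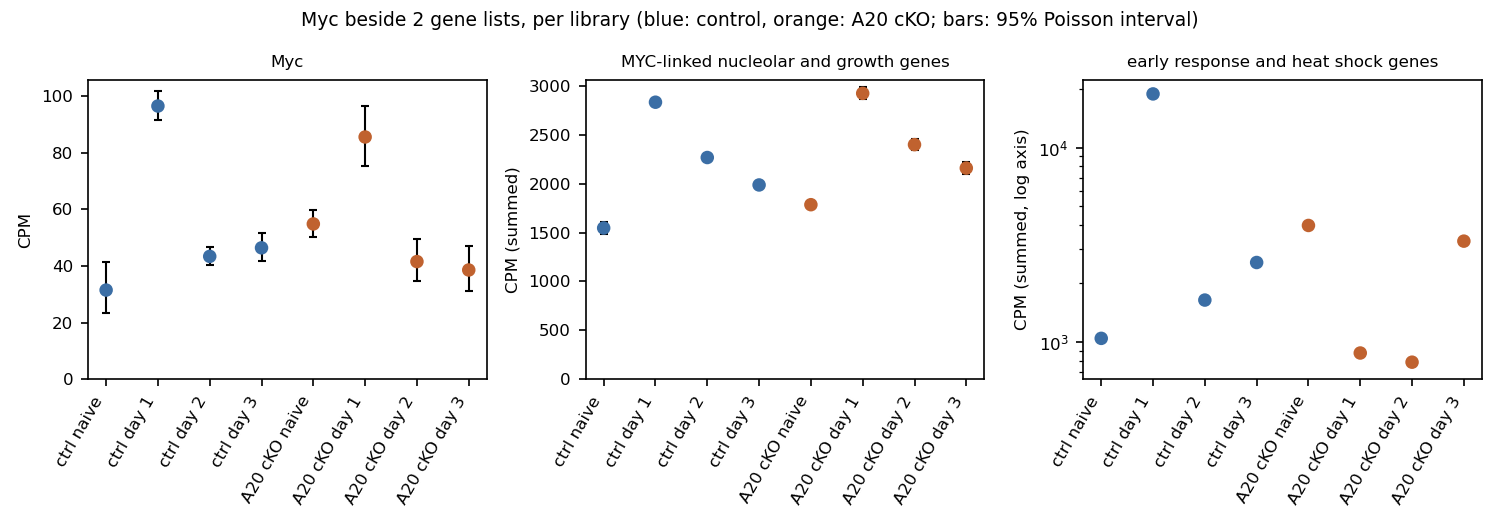
CPM of Myc, summed CPM of the 23 MYC-linked nucleolar and growth genes and summed CPM of the 11 early response and heat shock genes (log axis) in the 8 libraries, with 95% Poisson intervals; intervals smaller than a point are hidden by it. Myc and the growth genes are highest in both day-1 libraries, while the early response genes are at 18904 CPM in control day 1 and 875 CPM in A20 cKO day 1.

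Max (ENSMUSG00000059436, chromosome 12, 76937269 to 76962201, minus strand), the partner that the other MAX-binding members share, varied least, with the highest library 1.50 times the lowest. From naive to day 3 it read 54.3, 65.4, 54.1 and 65.0 CPM among the controls and 75.9, 81.2, 66.9 and 65.3 CPM with A20 cKO. Neighbours in the order of its levels lay within counting error of each other, but A20 cKO naive stood above control naive by 0.48 log2 (0.16 to 0.82) and above control day 3 by 0.22 (0.05 to 0.40). Mlx (ENSMUSG00000017801, chromosome 11, 101087277 to 101092207, plus strand), the MAX-like partner, varied as little, from 26.6 CPM in control day 2 to 40.9 CPM in A20 cKO day 1, 1.54 times apart. Its level is uncertain, because its 3′ end overlaps Psmc3ip on the opposite strand, a gene of meiotic and homologous recombination, and whether counting used strand is not given in the sources used here.

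All 6 repressing members read lower on control day 1 than in control naive, the opposite side to Myc. Mxd4, Mnt and Mga (-0.68 log2, -1.02 to -0.30) did so beyond counting error, and Mxd1, Mxd3 and Mxi1 did not. For Mxd3 the lower reading rests on 8 and 3 UMIs. Of all genes tested in this comparison, 40.5% were above 0, with a median log2 ratio of -0.13. Mxd4 (ENSMUSG00000037235, chromosome 5, 34173883 to 34187720, minus strand) read 80.8, 47.3, 66.3 and 88.4 CPM in the control libraries and 91.4, 63.1, 57.7 and 61.0 CPM in the A20 cKO libraries, naive first. Its log2 ratio on day 1 against naive was -0.78 in control (-1.05 to -0.49) and -0.53 in A20 cKO (-0.77 to -0.31). On day 3 the ratio was 0.12 in control (-0.14 to 0.41), within counting error of the naive level, and -0.58 in A20 cKO (-0.84 to -0.33), below it. Mxd4 overlaps the antisense transcript Gm42846 at its 3′ end.

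Mnt (ENSMUSG00000000282, chromosome 11, 74830920 to 74845725, plus strand), a repressor made in most cell types, read 35.8, 20.2, 16.6 and 34.3 CPM in the control libraries and 33.7, 29.7, 20.1 and 25.6 CPM in the A20 cKO libraries. It was lowest on day 2 in both genotypes, with log2 ratios against naive of -1.12 in control (-1.52 to -0.67) and -0.74 in A20 cKO (-1.17 to -0.35). Mxi1 (ENSMUSG00000025025, chromosome 19, 53310518 to 53375810, plus strand), also called Mxd2, ranged from 18.1 to 28.8 CPM. Its log2 ratios against A20 cKO naive were -0.42 on A20 cKO day 1 (-0.85 to -0.02), -0.51 on day 2 (-0.96 to -0.11) and -0.61 on day 3 (-1.11 to -0.17), and A20 cKO day 3 against control day 3 was at -0.66 (-1.16 to -0.20), all beyond counting error. None of its 3 control ratios against naive was. It overlaps Gm10197 on the opposite strand.

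Mga and Mxd1 followed the split of the libraries. Mga (ENSMUSG00000033943, chromosome 2, 119897228 to 119969581, plus strand), a large MAX partner that is also part of a Polycomb complex, read 48.1, 30.3, 36.4 and 76.0 CPM from control naive to day 3, against 86.4, 85.9, 72.2 and 72.4 CPM with A20 cKO. Mxd1 (ENSMUSG00000001156, chromosome 6, 86647042 to 86669161, minus strand), a repressor known from differentiating cells, read 13.6, 8.89, 7.59 and 16.6 CPM, against 24.6, 16.8, 16.8 and 14.6 CPM. Both were higher in each of the 5 linked libraries than in each of the other 3, and 0 of the 9 members were lower in each. Of 11045 genes, 19.9% were higher in this sense and 9.68% lower, so 2 of 9 members is near the background. For Mxd1 the lowest linked library and control naive differed by less than counting error (0.09 log2, -0.70 to 0.93).

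Mxd3 (ENSMUSG00000021485, chromosome 13, 55325168 to 55329823, minus strand), a repressor known from proliferating cells in S phase, had the widest range. From naive to day 3 the controls gave 1.85 CPM (0.382 to 5.41), 0.569 (0.246 to 1.12), 15.5 (13.6 to 17.6) and 5.21 (3.69 to 7.16). With A20 cKO it read 3.25 CPM (2.18 to 4.67), 0.991 (0.204 to 2.90), 4.94 (2.77 to 8.15) and 6.30 (3.60 to 10.2). Control day 2 stood above every other library and above the next, A20 cKO day 3, by 1.26 log2 (0.57 to 2.13). These levels rest on few molecules, 245 UMIs in control day 2 and 3 to 38 in each of the others.

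Comparisons of single libraries counted a gene as past the fold at a ratio of at least 2, among genes with at least 100 UMIs in both libraries together, and had no test. In control day 1 against naive, 1 of 8 tested members was past the fold, Myc at 1.60 log2 (1.21 to 2.05), beside 3.82% of all tested genes higher and 7.25% lower. Of the other members tested there, only Max and Mlx were above 0. Since the median of all genes in this comparison was -0.13, Myc lay 1.73 log2 above it. In control day 2 against naive, 2 of 9 members were past the fold, Mxd3 higher at 2.85 log2 (1.50 to 5.35, on 245 against 3 UMIs) and Mnt lower at -1.12, beside 5.92% of genes higher and 6.28% lower. In control day 3 against naive, 0 of 8 members were past the fold, beside 8.76% higher and 2.32% lower.

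No tested member was past the fold in any A20 cKO comparison. The background there was 1.56% higher and 1.39% lower on day 1, 2.86% and 2.65% on day 2, and 1.92% and 2% on day 3, each against A20 cKO naive. On A20 cKO day 2 all 8 tested members were below their naive level, Max and Mlx within counting error. Their median log2 ratio was -0.45, where the median of all genes was -0.07 and 42.7% of all tested genes were above naive. On day 3 the median of the members was again -0.45 with 7 of 8 below and Mlx above. There the median of all genes was -0.10, and 38.5% of all tested genes were above naive. These A20 cKO comparisons lie within the linked libraries and share A20 cKO naive. Between genotypes, 0 of 8 tested members were past the fold in A20 cKO naive against control naive, beside 7.43% of genes higher and 2.22% lower. The same held for A20 cKO day 3 against control day 3, beside 1.86% and 2.4%, and for A20 cKO naive against control day 3, beside 0.964% and 1.49%, both within the linked libraries. In A20 cKO naive against control naive, which crosses the split, Myc was 0.79 log2 higher (0.38 to 1.25), Mxd1 0.83 (0.22 to 1.56) and Mga 0.84 (0.51 to 1.20).

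Whether members differ in dividing cells was asked within libraries, so that differences between libraries cancel. A cell with at least 1 UMI of Mki67 or Top2a, genes expressed by dividing cells, was called inside, and all others outside. Inside cells numbered 2730 and outside cells 11896. From naive to day 3 the inside share of kept cells was 0.528%, 1.93%, 46.7% and 21.2% among the controls, and 6.50%, 8.47%, 27.6% and 16.1% with A20 cKO. Control naive, with 3 inside cells, was left out, and the other 7 libraries entered edgeR's quasi-likelihood test with the library as a block. Of 10658 genes tested, 12.3% rose inside at a Benjamini-Hochberg adjusted p below 0.05 and 9.38% fell. All 9 members passed the filter on low counts, 1 of them rose, 1 fell and 7 did not pass the test. Each library holds 1 condition, so the spread in this test is between conditions and pools.

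Mxd3 rose inside by 3.15 log2 (SE 0.50, n = 7 libraries, edgeR adjusted p = 0.000117). Inside against outside it read 8.41 against 0.365 CPM on control day 1, 20.4 against 9.61 on day 2 and 17.4 against 0.750 on day 3. In the A20 cKO libraries it read 32.0 against 0.370 CPM in naive, 8.62 against 0 on day 1, 12.9 against 0.513 on day 2 and 22.9 against 1.98 on day 3. Inside was above outside beyond counting error in 7 of 7 libraries, although control day 1 and A20 cKO day 1 had 3 inside UMIs each. On A20 cKO day 1, 0 of 811 outside cells had a UMI, which allows a share of up to 0.454% of cells with a UMI and does not limit the share of cells that express the gene.

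Control day 2 stood apart in its outside cells. Its Mxd3 ratio was 1.08 log2 (0.67 to 1.51), the smallest of the 7, while the other 6 ratios had lower limits of at least 1.67. The inside level of 20.4 CPM lay within the range of the other libraries, and the outside level of 9.61 CPM (7.48 to 12.2) lay above all of them, which were at most 1.98 CPM. The outside cells were then divided by whether they had a UMI of any of the further genes in a wider class of 10 mitotic genes, a division chosen after seeing the data. Mxd3 read 9.47 CPM (6.74 to 13.0) in outside cells with such a UMI, 28.4% of the library, and 9.80 CPM (6.61 to 14.0) in cells with none of the 10, 24.9% of the library. In the other 7 libraries the cells with none of the 10 read at most 2.24 CPM. No genes of DNA replication were used in this division, so cells in S phase can remain among those with none of the 10. The part of free RNA in these outside levels was not measured. Without control day 2 the fitted change was 4.84 log2.

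The 3′ end of Mxd3 overlaps that of Prelid1 on the opposite strand, a mitochondrial lipid-transfer gene that itself rose inside by 0.35 log2 (SE 0.066, edgeR adjusted p = 0.000653), a smaller change than that of Mxd3. Reads of this pair cannot be told apart without strand.

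Mxd4 fell by 0.49 on the log2 scale inside (SE 0.095, n = 7, edgeR adjusted p = 0.000834). Inside against outside it read 42.1 against 47.4 CPM on control day 1, 59.7 against 74.2 on day 2 and 80.5 against 91.3 on day 3. In the A20 cKO libraries it read 60.3 against 94.5 CPM in naive, 28.7 against 67.5 on day 1, 39.6 against 67.7 on day 2 and 40.1 against 66.4 on day 3. Inside was below outside in 7 of 7 libraries and beyond counting error in 5, all but control day 1 and day 3. Inside cells were deeper than outside cells, for example with a median of 4635 against 3552.5 UMIs on control day 2. With all cells thinned to 2000 UMIs before the classes were drawn, Mxd4 was at -0.41 log2 with an edgeR adjusted p of 0.0787, and Mxd3 still passed at 3.53 log2.

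**Figure D3:**
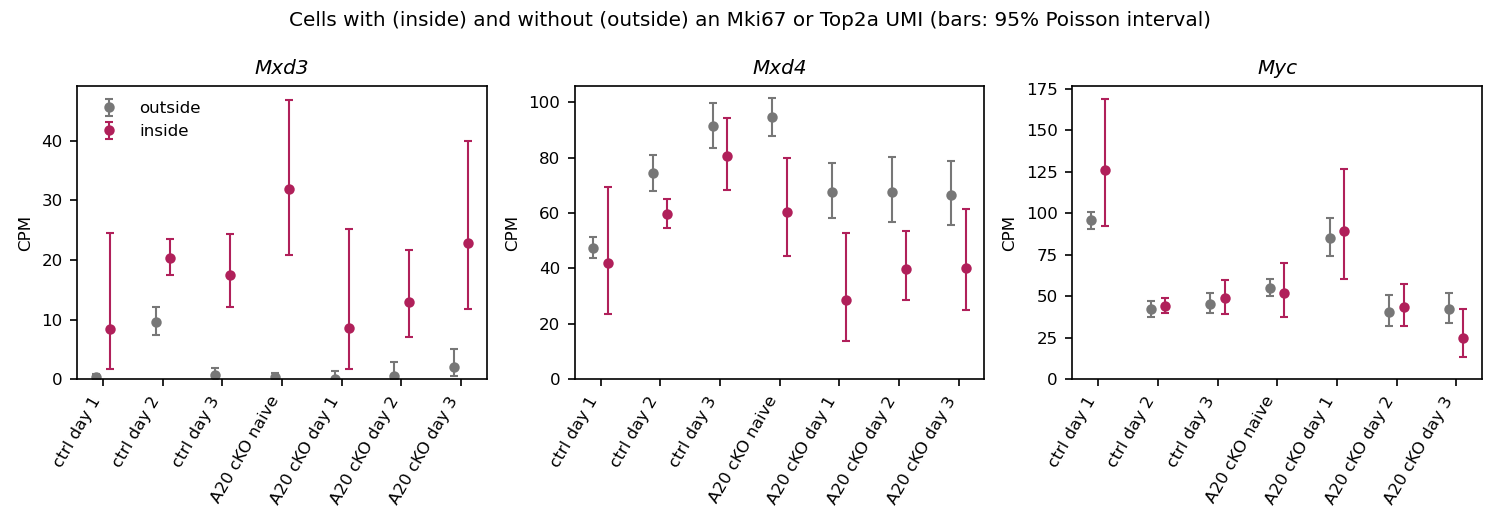
Mxd3, Mxd4 and Myc in CPM in cells with (inside, magenta) and without (outside, grey) an Mki67 or Top2a UMI in the 7 libraries with at least 20 inside cells; bars are 95% Poisson intervals. Mxd3 is higher inside in all 7 and Mxd4 lower in all 7, the outside level of Mxd3 is highest in control day 2 (9.61 CPM), and the intervals of Myc overlap in every library.

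Myc itself did not separate the classes. Inside against outside it read 126 against 95.7 CPM on control day 1, 44.3 against 42.2 on day 2 and 48.7 against 45.5 on day 3, and 51.7 against 55.1, 89.0 against 85.1, 43.3 against 40.5 and 24.8 against 42.1 CPM in A20 cKO naive, day 1, day 2 and day 3. The fitted difference was 0.01 log2 (SE 0.092, edgeR adjusted p = 0.963), with 0 of 7 libraries beyond counting error. The high level of both day-1 libraries was therefore present in outside cells, which were 3259 of 3323 cells on control day 1 and 811 of 886 on A20 cKO day 1.

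The other 6 members also missed the threshold. Their fitted log2 differences were -0.15 for Max (SE 0.087, edgeR adjusted p = 0.248), -0.12 for Mxd1 (0.189, 0.716), 0.05 for Mxi1 (0.136, 0.863), -0.03 for Mnt (0.132, 0.943), -0.09 for Mlx (0.115, 0.648) and -0.21 for Mga (0.095, 0.124), where the median of all genes was -0.03. Mga was below its outside level in 6 of 7 libraries and passed the test in 2 alternatives, with at least 2 UMIs of Mki67 or Top2a asked of an inside cell (-0.31, edgeR adjusted p = 0.0414) and with the wider class of mitotic genes (-0.23, 0.0419). Psmc3ip, which overlaps Mlx, rose inside by 1.52 log2 (edgeR adjusted p = 9.75e-05), and Mlx did not.

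**Figure D4:**
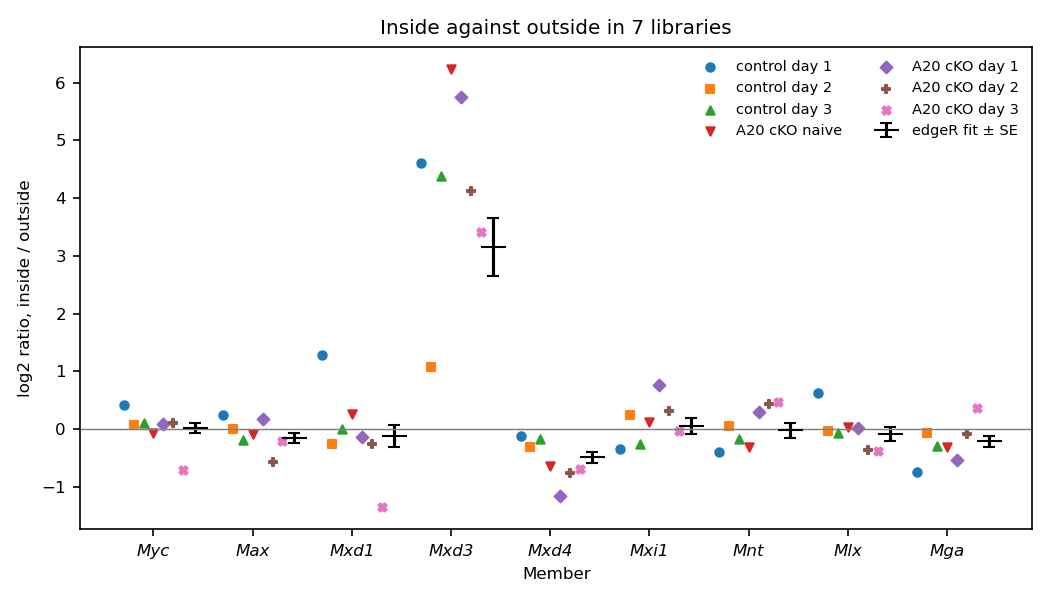
Log2 ratio of each member between inside and outside cells, 1 symbol per library (0.5 UMIs added to each sum) and in black the edgeR estimate with its standard error. The 7 ratios of Mxd3 run from 1.08 in control day 2 to 6.24 in A20 cKO naive and those of Mxd4 from -1.17 to -0.13; Mga is below 0 in 6 of 7 libraries, and the other 6 members have ratios on both sides of 0; the Mxd3 ratio of A20 cKO day 1 rests on 3 against 0 UMIs.

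The inside-outside difference was also compared between genotypes, as the interaction of class and genotype in the same fit, for which 1.17% of genes were called. None of the 9 members passed. For Mxd3 the A20 cKO difference was larger by 3.25 log2 (SE 0.84, edgeR adjusted p = 0.0586, unadjusted p = 0.000765), and it was 0.80 (adjusted p = 1) without control day 2, the library with the high outside level. It passed the test without control day 3 (3.99, adjusted p = 9.62e-05) and with no filter on low counts (3.23, adjusted p = 3.58e-06), and it gave an adjusted p of 0.9996 with DESeq2. For Mxd4 the interaction was -0.50 (SE 0.16, edgeR adjusted p = 0.201) and for Myc -0.22 (SE 0.18, adjusted p = 0.857). With an unadjusted edgeR p below 0.05, 2 of the 9 members, Mxd3 and Mxd4, and 887 of all 10658 tested genes were found.

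Partners and regulators of the network were counted from a list of 30 genes, of which 29 were tested inside against outside. Of these, 7 rose and 4 fell, beside 12.3% and 9.38% of all genes, and the median was 0.00 log2. Skp2, part of a ubiquitin ligase that acts on MYC and on cell cycle inhibitors, rose by 1.57 (SE 0.16, edgeR adjusted p = 1.1e-06) and E2f6, a repressor found in a complex with MGA, by 0.85 (SE 0.17, adjusted p = 0.00116). Mycl, the MYC paralog that also pairs with MAX, was at -0.91 (SE 0.22, edgeR adjusted p = 0.00493), the lowest of the list, and Txnip, a target of the MLX partners, at -0.42 (SE 0.064, adjusted p = 6.73e-05). Mlxip and Mlxipl, the MLX partners themselves, named after their values were seen, fell too, at -0.31 and -0.36. Mycn, the third MYC paralog, was at 0 in all 8 libraries.

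Mycl lay on the opposite side to Myc on day 1. From naive to day 3 the controls gave 18.5 CPM (12.5 to 26.4), 6.83 (5.53 to 8.34), 4.55 (3.56 to 5.73) and 35.4 (31.2 to 40.0). With A20 cKO it read 35.1 CPM (31.3 to 39.2), 11.2 (7.78 to 15.7), 7.25 (4.54 to 11.0) and 4.72 (2.44 to 8.25). Mycl was thus highest in control day 3 and A20 cKO naive, lower in control naive, and lowest in the other 5 libraries. The intervals of control naive and A20 cKO day 1 overlap. The log2 ratio on day 1 against naive was -1.46 in control and -1.63 in A20 cKO. Pim1, a kinase that acts with MYC, named after its values were seen, was higher on day 1 than in naive by 2.30 log2 in control and 1.01 in A20 cKO. Its levels were 9.26, 46.9, 37.9 and 48.9 CPM among the controls, naive first, and 18.4, 37.0, 36.3 and 24.0 CPM with A20 cKO, so control day 3 read as high as day 1.

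Over the whole list of partners, 2 of 27 tested genes were higher and 2 lower by at least 2-fold on control day 1 against naive, with a median of 0.02. On A20 cKO day 1, 1 of 28 was higher and 1 lower, with a median of 0.14. Of all tested genes, 3.82% were higher and 7.25% lower in control, and 1.56% and 1.39% in A20 cKO. Of the 23 MYC-linked growth genes, 11 rose inside and 0 fell, beside 12.3% and 9.38% of all genes. The median of the list was 0.25 log2, while Myc did not differ. The 2 largest called changes were those of Rcc1, a chromatin-bound exchange factor for Ran, at 1.30 (SE 0.18, edgeR adjusted p = 2.32e-05) and Nop58, a nucleolar protein of the box C/D particles, at 0.63 (SE 0.088, adjusted p = 2.67e-05). Of the early response and heat shock genes, 10 were tested, and 0 rose and 5 fell inside, beside the same 12.3% and 9.38% of all genes.

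The genes most like each member over the 8 libraries were ranked by Pearson r of log2(CPM + 1) among 6095 genes that averaged 20 CPM or more, as a description of 8 points that share the split and the time points. For Myc they were Rsl1d1 (r = 0.97), a ribosome biogenesis protein, Polr3d (0.95), a subunit of RNA polymerase III, and Trmt10c (0.94), a mitochondrial tRNA methyltransferase. For Mxd3 they were H2afv (0.96), a histone variant, Gmfg (0.93) and Eif3f (0.90), a translation initiation subunit. For Mxd4 they were Zbtb20 (0.96), Pcmtd1 (0.95) and Bnip3l (0.94), a mitophagy receptor. For Mga they were Btbd7, Xiap and Nsd1, each at 0.99 or above, and these 3 genes share with Mga its level by split.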

How the data were processed

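The authors deposited 1 matrix of raw UMI counts per library, not normalized, and these counts were used. Per the submitters' processing notes, reads were processed with Cell Ranger 2.1.1 and the build mm10. Doublets were gated out at the sort, which came before the cells entered droplets. Doublets formed in droplets were not looked for, as no doublet caller was run here. Labels and methods name different kit versions.

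Of 14883 barcodes, 14626 passed the filter (at least 1000 UMIs and 500 genes, no more than 10% mt- UMIs). Libraries held 1648400 to 15817426 UMIs before filtering. Shares were computed on cells thinned to 2000 UMIs (13691 cells). For log2 ratios 0.5 UMIs were added. With 1 library per group, no test between groups was run. Intervals are exact Poisson (levels), Clopper-Pearson (shares) and conditional binomial (ratios) intervals at 95%.

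UMI sums inside and outside per library were fitted with edgeR 4.0.16 (R 4.3.3; TMM, filterByExpr, quasi-likelihood F test, library as block, Benjamini-Hochberg over all genes), leaving out Mki67 and Top2a; DESeq2 1.42.0 was an alternative. The procedure was tested on simulated data. Gene identifiers matched GENCODE M21 (GRCm38) for 27645 of 27998 genes, including all 9 members.

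Besides the members, Mki67 and Top2a, the genes named were the 3 most like a member by Pearson r and, of each list, the 2 largest called changes in each direction; others are said to be named after their values were seen. Members, lists and tests were chosen with earlier results of these data known. Alternatives were other scalings, cell filters, classes, filters on counts, and leaving out libraries or shared barcodes.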

Additional observations from a re-analysis of the deposited data

Results flagged for a closer look

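For Myc and Mga the control and A20 cKO libraries stood on opposite sides of their own naive library at the same time point. The difference between genotypes was not tested, since each library is single. On day 2 against naive, Myc was at 0.45 log2 in control and -0.40 in A20 cKO, a difference of 0.846. On day 3 it was at 0.55 in control and -0.50 in A20 cKO, a difference of 1.05. Mga on day 3 was at 0.65 in control and -0.25 in A20 cKO, a difference of 0.904. Control day 3 against control naive crosses the split into linked and other libraries, whereas the A20 cKO comparisons lie within the linked libraries. In both genotypes the day-2 and day-3 levels of Myc lay between 38.6 and 46.4 CPM, and the naive libraries were at 31.5 and 54.8 CPM.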

How the results depend on the processing

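The log2 ratios of members between libraries moved by less than counting error in 644 of 648 alternatives. Of the 648, the 81 without a minimum of UMIs were the same by construction, because that minimum does not enter a member's ratio. The 4 exceptions were ratios of Mxd3 in outside cells only, of which control day 3 against naive changed sign (-0.881, against 1.29 in all cells, on 3 UMIs in control naive). Without a minimum of UMIs, the number of genes past the fold was 4611, 4522 and 3855 for control days 1, 2 and 3 and 2813, 3184 and 2809 for A20 cKO days 1, 2 and 3 against naive, 3388 for A20 cKO naive against control naive, 2843 for A20 cKO day 3 against control day 3 and 3519 for A20 cKO naive against control day 3; genes with few UMIs enter there by construction. In outside cells only it was 532 for control day 2 (1132 in all cells) and 143 for A20 cKO naive against control day 3 (234 in all cells); the cause was not tested.

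Inside against outside, 2306 genes were called, 1086 with thinned cells and 481 without the library as a replicate block; the cause was not tested. Without the block Mxd3 passed at 3.01 log2 (edgeR adjusted p = 0.0168) and Mxd4 did not (-0.49, adjusted p = 0.251). Leaving out 1 library gave 1632 to 2300 genes, and Mxd3 and Mxd4 passed each time. The genotype difference was called for 125 genes, 23 with DESeq2, 228 without a filter on counts, 49 with at least 2 UMIs asked inside, and 17 (without control day 2) to 278 (without control day 3) with 1 library left out; it was 18 without A20 cKO naive and 57 without A20 cKO day 3. Thinning moved 62 of 72 shares of members. Low counts of Mxd3 and single libraries limit every statement on conditions.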
